A study of Mus musculus with 12 samples.

Results

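The 33 genes described here act in DNA repair or in the checkpoint that halts the cell cycle after DNA damage. They form a given list and were taken from the array by symbol: a probe set, the group of probes that reads 1 transcript, was used where its only symbol was a member. All 33 had such a probe set, among 19938 symbols on the array; 31 had 1 probe set and 2, Nbn and Rpa3, had 2. The list holds 14 genes of nucleotide excision repair, 4 of double-strand break repair, 4 checkpoint kinases, 2 of mismatch repair, 7 of base excision and single-strand break repair and 2 of the Fanconi anaemia pathway.

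They were read in 12 samples of sorted mouse epidermal stem cells, with 3 arrays in each of 4 groups. Of these, 6 arrays hold cells of the hair follicle bulge, sorted for bright alpha6 integrin and CD34 from Per1-Venus reporter mice 18 to 19 days old, with about 20 mice pooled for a sample. Per1-Venus makes a fluorescent protein follow the clock gene Per1. Bright cells are the clock-positive group and dim cells the clock-negative group. The clock-negative labels also state a high Venus gate, so the grouping rests on the titles and on the design text. The other 6 arrays hold basal cells of the interfollicular epidermis (IFE), the skin between the follicles, from mice 1 year old with 5 mice for a sample, and these mice were wild type (WT) or lacked Bmal1 in the epidermis (knockout, KO). Bmal1, also called Arntl, is the clock activator, and the labels do not give the Cre driver, the exons removed or the sex of the mice. The cells were not treated before they were purified.

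Nucleotide excision repair cuts out a short strand around bulky lesions such as those made by ultraviolet light. The lesions are found through distortion of the helix anywhere in the genome or through a stalled RNA polymerase in transcribed genes. Base excision repair removes single damaged bases, mismatch repair corrects copying errors, and double-strand breaks and crosslinks are handled by recombination and by the Fanconi anaemia pathway. Epidermal cells meet ultraviolet light and oxygen damage, and in mouse skin and liver the amount of Xpa, a factor of nucleotide excision repair, is known to follow the circadian clock.

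CLOCK and BMAL1, the paired clock activators, bind the E-box CACGTG, which reads the same on both strands. RefSeq windows of 300 bases, from 250 before to 50 after the gene start (GRCm38.p6), were matched for 26 of the 33 genes, and 7 of these 26 held the letters: Ercc6, Ercc8, Rpa1, Apex1, Lig1, Lig3 and Parp1. Of all 27025 symbols with a window, 8.09% held it. Nbn, Xpc, Ercc3, Fancd2, Polb, Ddb2 and Rad50 had no matched window. The sequences of 3 excision repair genes with the motif and of Xpa, the member best known for a daily rhythm, are shown 5′ to 3′ on the gene's strand with the motif in capitals: Ercc6 at chr14:32513271-32513570 on the plus strand, Ercc8 at chr13:108158488-108158787 on the plus strand, Rpa1 at chr11:75348334-75348633 on the minus strand and Xpa at chr4:46196262-46196561 on the minus strand.
Ercc6: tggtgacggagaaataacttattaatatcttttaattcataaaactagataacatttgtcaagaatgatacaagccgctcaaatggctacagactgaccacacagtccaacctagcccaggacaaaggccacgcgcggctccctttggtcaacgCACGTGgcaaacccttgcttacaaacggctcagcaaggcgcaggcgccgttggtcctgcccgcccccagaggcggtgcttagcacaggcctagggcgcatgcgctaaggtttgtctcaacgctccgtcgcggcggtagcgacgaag
Ercc8: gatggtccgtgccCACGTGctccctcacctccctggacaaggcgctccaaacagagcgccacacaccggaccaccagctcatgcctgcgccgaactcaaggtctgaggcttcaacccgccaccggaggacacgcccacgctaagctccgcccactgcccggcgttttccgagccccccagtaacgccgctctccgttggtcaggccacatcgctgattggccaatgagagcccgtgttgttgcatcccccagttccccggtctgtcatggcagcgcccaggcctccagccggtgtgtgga
Rpa1: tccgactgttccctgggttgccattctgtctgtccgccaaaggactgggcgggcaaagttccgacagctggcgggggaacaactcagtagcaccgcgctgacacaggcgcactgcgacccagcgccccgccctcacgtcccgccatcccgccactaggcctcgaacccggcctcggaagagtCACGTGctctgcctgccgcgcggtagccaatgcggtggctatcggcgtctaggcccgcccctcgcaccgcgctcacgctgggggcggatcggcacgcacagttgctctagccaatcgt
Xpa: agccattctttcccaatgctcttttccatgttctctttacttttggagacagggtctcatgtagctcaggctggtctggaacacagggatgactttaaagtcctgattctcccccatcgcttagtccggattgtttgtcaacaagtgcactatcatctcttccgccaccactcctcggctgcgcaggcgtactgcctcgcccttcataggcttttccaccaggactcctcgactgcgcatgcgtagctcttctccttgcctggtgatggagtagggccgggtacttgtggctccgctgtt
The motif began 96 bases before the gene start in Ercc6, 237 before it in Ercc8 and 68 before it in Rpa1. In Xpa these letters are not in this window. A match is a description of the sequence, not a bound site.

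The deposited values are log2 intensities, and changes below are taken within 1 gene, since different probes are not comparable. The first and second comparisons stay within 1 set of arrays. The third comparison and 1 alternative fit use all 12 arrays. The bulge and IFE sets carry values on partly different probe sets: 28101 of 35512, with those used for all 33 members, had values on all 12 arrays. Array medians ran from 6.82 to 7.01 in the bulge set, with the 3 clock-negative arrays above the 3 clock-positive ones, and from 7.75 to 7.80 in the IFE set. Per1 was higher in clock-positive cells by 0.51 ± 0.07 (standard error of the fit, as after every ± of a change below; limma, adjusted p = 1.95e-04). Arntl, the knocked-out gene, read 9.27, 9.47 and 9.34 on the WT arrays and 9.85, 9.60 and 9.55 on the arrays labelled KO, which lay above them (0.30 ± 0.12, adjusted p = 0.530 in limma); since the removed exons are not in the labels, this probe set is no check of the deletion. Nr1d1, a direct target of BMAL1, fell by 3.98 on the KO-labelled arrays. Basal markers of the epidermis averaged 12.41 to 12.54 on every IFE array, and bulge markers averaged 9.43 to 9.51 on clock-negative and 10.29 to 10.31 on clock-positive arrays.

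The first comparison asks how repair genes differ between bulge cells with a bright and a dim Per1 reporter. Of the 33 genes, 32 passed the filter on dim genes (Chek2 did not), and 20 of the 32 were higher in clock-positive cells, with 0 lower (limma, adjusted p under 0.05) and 0 lower at an unadjusted p under 0.05, where 19.6% of all genes were. This count stands against a high background: 45.2% of the 13956 genes tested were called higher and 18.3% lower. The members' median log2 change was 0.191 and that of all genes 0.147. Changes were small, and only Rpa3, the smallest subunit of the single-strand binding complex RPA, passed a fold of 1.5, as 7.22% of all genes did. Nucleotide excision repair held most of the calls, with 13 of its 14 genes higher and a median change of 0.252, while the checkpoint kinases and the Fanconi anaemia pathway had none. This order of the routes holds for the values as deposited and turned with the scaling. Under quantile normalization excision repair had 4 of 14 genes higher and the checkpoint kinases 3 of 3 tested, where 29.5% of all genes were. Under cyclic loess it was 4 of 14 and 2 of 3, where 25.3% of all genes were. Calls as deposited also varied with intensity, over all genes in 7 bins from dim to bright. In bins 1 and 2, which held the tested checkpoint kinases, 8.23% and 21% were higher. In the brighter bins, which held the excision repair genes, 39% to 67.9% were.

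Groups that did not overlap were common: for 23 of the 32 genes the 3 clock-positive values lay above all 3 clock-negative values, and for Fanca they lay below, against 50.1% and 19.1% of all genes. The spread within groups was narrow, with a median SD of 0.0591 over the members. Clock-negative array 2 gave the lowest value of 19 of the 32 genes (59.4%), and of 39.1% of all genes. As every sample is a bulk of sorted cells, a cell type that is less frequent and one that holds less of an RNA cannot be told apart.

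**Figure D1:**
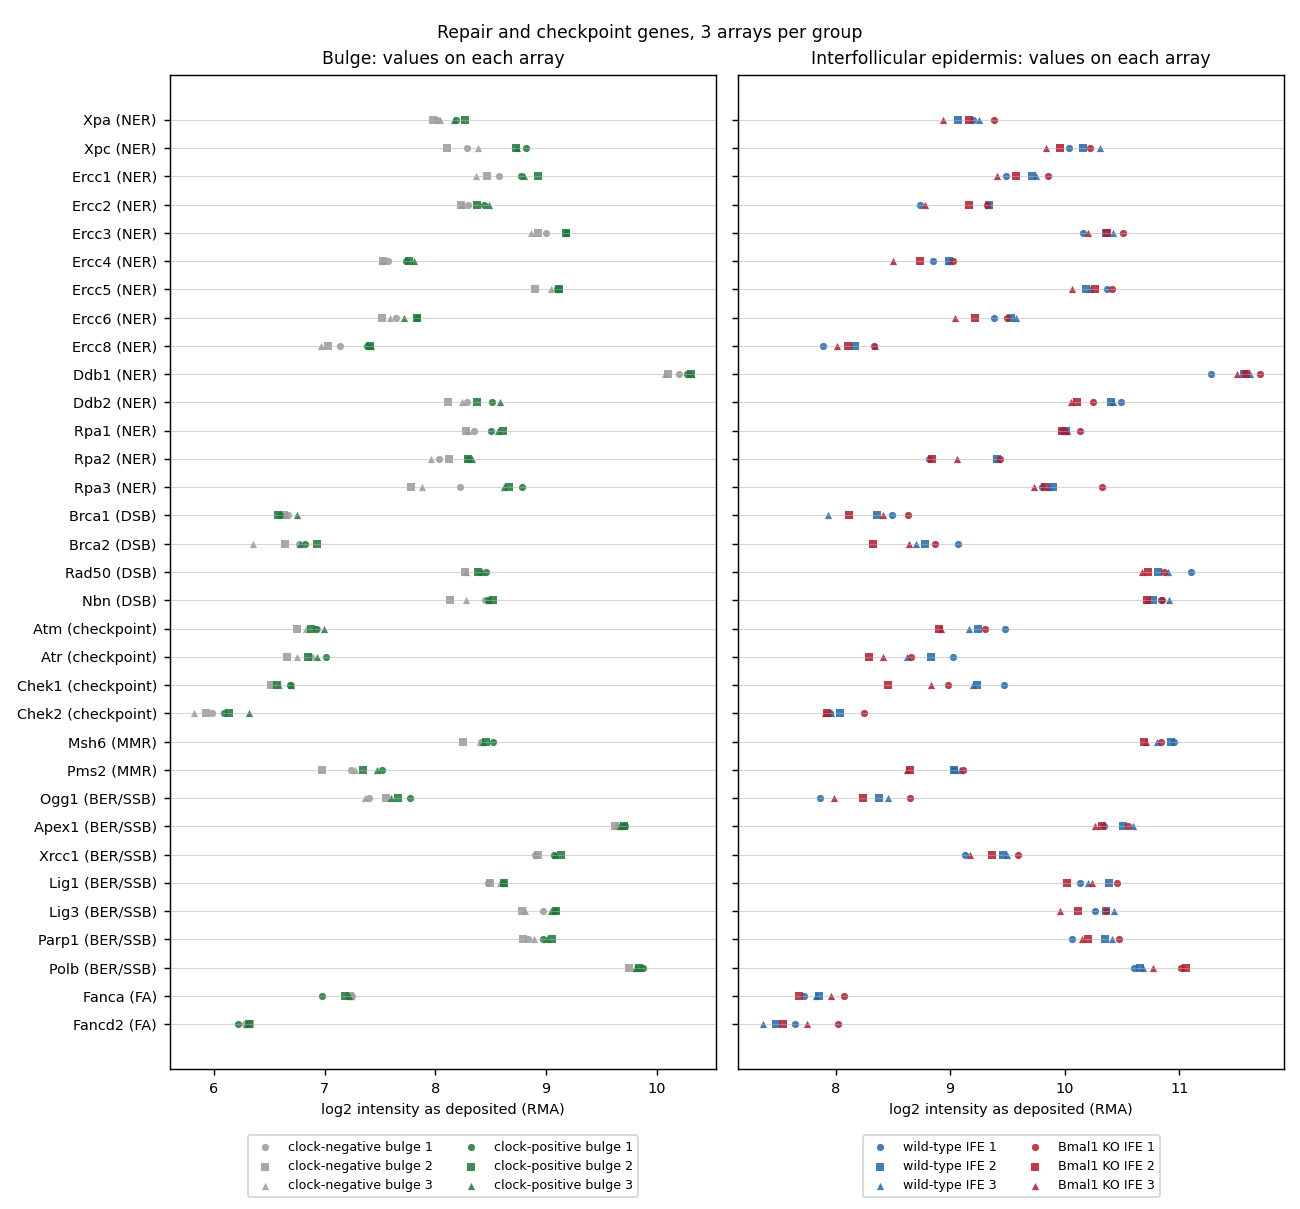
Log2 intensity of the 33 genes (rows, with the repair route in brackets) on each of the 12 arrays, with bulge cells on the left and interfollicular epidermis on the right; each point is 1 array and colours mark the groups. Values compare within a row only: clock-positive points lie to the right of all clock-negative points in most bulge rows (Rpa3 and Xpc are the widest), while WT and KO-labelled points are mixed in 30 of the 33 epidermis rows.

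Among the factors that find damage, Xpc senses helix distortion across the genome. It read 8.82, 8.73 and 8.74 on the clock-positive arrays and 8.29, 8.11 and 8.39 on the clock-negative arrays. Every clock-positive value lay above every clock-negative one, and the change was 0.50 ± 0.08, a fold of 1.42 (limma, adjusted p = 4.97e-04). Ddb2, which with Ddb1 binds ultraviolet lesions and hands them to XPC, read 8.51, 8.38 and 8.58 against 8.29, 8.11 and 8.25. Its groups were also apart, by 0.28 ± 0.08 (adjusted p = 0.0097). Its partner Ddb1 differed less, by 0.17 ± 0.06 (adjusted p = 0.0327).

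The transcription-coupled branch starts from Ercc6 (CSB) and Ercc8 (CSA), which act at stalled RNA polymerase. Ercc8 read 7.38, 7.41 and 7.42 in clock-positive cells and 7.14, 7.03 and 6.97 in clock-negative cells, 0.36 ± 0.07 apart (limma, adjusted p = 0.0011). The clock-positive values of Ercc8 lay close together and did not meet the clock-negative ones. Ercc6 was higher by 0.21 ± 0.07 (adjusted p = 0.0186). The promoters printed above for both genes hold the E-box letters. Over the list 5 of the 7 genes with the motif were called higher and 11 of 18 tested genes with a window and no motif, with medians of 0.212 and 0.182. Of all genes tested 45.2% were called higher. The share among all genes with the motif was not counted, so these counts are a description and do not link the motif to the changes.

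Damage is then verified and opened by TFIIH, whose helicases are Ercc2 (XPD) and Ercc3 (XPB), and by Xpa and RPA. Xpa read 8.19, 8.27 and 8.17 in clock-positive and 8.01, 7.98 and 8.04 in clock-negative cells. The groups did not overlap, and the change was 0.20 ± 0.06 (limma, adjusted p = 0.0180), beside a median of 0.147 over all genes. Ercc3 was higher by 0.25 ± 0.06 and Ercc2 by 0.18 ± 0.06.

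RPA coats the bared strand in repair and in replication. Rpa3 had the widest change of the list: it read 8.78, 8.66 and 8.63 in clock-positive cells and 8.23, 7.78 and 7.88 in clock-negative cells. Clock-negative array 1 lay nearest to the clock-positive values and still below them, and the change was 0.73 ± 0.11, a fold of 1.66 (limma, adjusted p = 3.16e-04). The other Rpa3 probe set gave a change of 0.297. Rpa1 and Rpa2, the larger subunits, were higher by 0.26 ± 0.06 and 0.27 ± 0.06 (adjusted p = 0.0052 and 0.0050).

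The damaged strand is cut by Ercc1 with Ercc4 (XPF) on one side and by Ercc5 (XPG) on the other. Ercc1 read 8.77, 8.93 and 8.81 against 8.57, 8.47 and 8.37, a change of 0.37 ± 0.07 (limma, adjusted p = 0.0020). Ercc4, its partner, read 7.74, 7.77 and 7.81 against 7.57, 7.53 and 7.52, a change of 0.23 ± 0.06 (adjusted p = 0.0074). Neither pair of groups overlapped. Ercc5 was the 1 gene of the route with no call: it read 9.10, 9.12 and 9.11 against 9.12, 8.90 and 9.05, with clock-negative array 1 inside the clock-positive range (0.09 ± 0.07, adjusted p = 0.280).

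Outside this route fewer genes were called. In base excision and single-strand break repair 4 of 7 genes were higher: Ogg1, the glycosylase that removes oxidised guanine, by 0.24 ± 0.07, Lig3 by 0.22 ± 0.07, its scaffold Xrcc1 by 0.19 ± 0.06 and Parp1, the sensor of strand breaks, by 0.17 ± 0.06 (limma, adjusted p = 0.0185, 0.0196, 0.0190 and 0.0315). The nuclease Apex1, the replicative ligase Lig1 and the gap-filling polymerase Polb changed by 0.05, 0.10 and 0.04 with no call. Polb read 9.88, 9.84 and 9.82 against 9.86, 9.75 and 9.80, and its 95% interval ran from -0.10 to 0.17. In mismatch repair, Pms2 of the MutL complex was higher by 0.29 ± 0.09 (adjusted p = 0.0158), and Msh6, which reads mismatches, differed by 0.11 with no call.

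Of the double-strand break genes, Brca2, a mediator of homologous recombination, was higher by 0.25 ± 0.10 (limma, adjusted p = 0.0431) and Nbn of the MRN complex by 0.21 ± 0.08 (adjusted p = 0.0437), though the other Nbn probe set gave -0.083. Rad50, also of MRN, had no call at 0.11. Brca1 read 6.60, 6.58 and 6.75 against 6.67, 6.64 and 6.65, with overlapping groups and a change of -0.01 ± 0.07 whose 95% interval ran from -0.15 to 0.14. Among the checkpoint kinases, Atr, which senses stalled forks, differed by 0.17 ± 0.07 (adjusted p = 0.0722), Atm, which senses breaks, by 0.10 and their target Chek1 by 0.05. Chek1 read 6.68, 6.57 and 6.70 against 6.70, 6.52 and 6.59, so the groups overlapped. Chek2, left out as dim, read 6.09, 6.14 and 6.31 against 5.99, 5.93 and 5.82, with no overlap (0.27 ± 0.08, adjusted p = 0.0143 where no gene was filtered out). Fanca and Fancd2 of the Fanconi anaemia pathway changed by -0.11 ± 0.07 and -0.02, with no call.

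Each array was left out in turn, which also leaves fewer samples for the test. Xpc, Ercc1, Ercc3, Ercc4, Ercc8, Ddb2, Rpa1, Rpa2 and Rpa3 were called without any 1 of the 6 arrays, 9 of the 20. The share of all genes called in all 6 fits together was not counted, so this is a description of the members only. Xpa lost its call without clock-positive array 2, Ercc6 without clock-positive array 1 or 2 and Pms2 without clock-positive array 1 or 3. Ogg1 lost it without clock-positive array 1 or clock-negative array 3, and Xrcc1 without clock-positive array 2 or 3 or clock-negative array 3. Ercc2, Lig3 and Parp1 kept it in 2 of 6 such fits, and Ddb1, Brca2 and Nbn in 1 of 6, the one without clock-negative array 1. The count of members called higher was 11, 12 and 13 without clock-positive array 1, 2 and 3, where 36.9%, 38.7% and 37.1% of all genes were. Without clock-negative array 2 and 3 it was 14 and 13, where 39.8% and 36.9% of all genes were, and without clock-negative array 1 it was 22, where 6981 of the 13956 genes were.

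The calls also depended on how the arrays were scaled to each other, and the shift between groups varied with intensity. Over all genes in 7 bins of mean intensity, the median change went from -0.223 in the dimmest bin to 0.257 in the fifth bin and stood at 0.195 in the brightest, and cyclic loess, which removes such a slope, brought these medians to between -0.0229 and 0.0911. With quantile normalization 11 members were higher and 0 lower, against 29.5% and 12.2% of all genes. With cyclic loess 9 were higher and 2, Apex1 and Polb, lower, against 25.3% and 15.8%. With each array centred on its median 29 were higher and 0 lower, against 64.0% and 9.71% of genes.

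**Figure D2:**
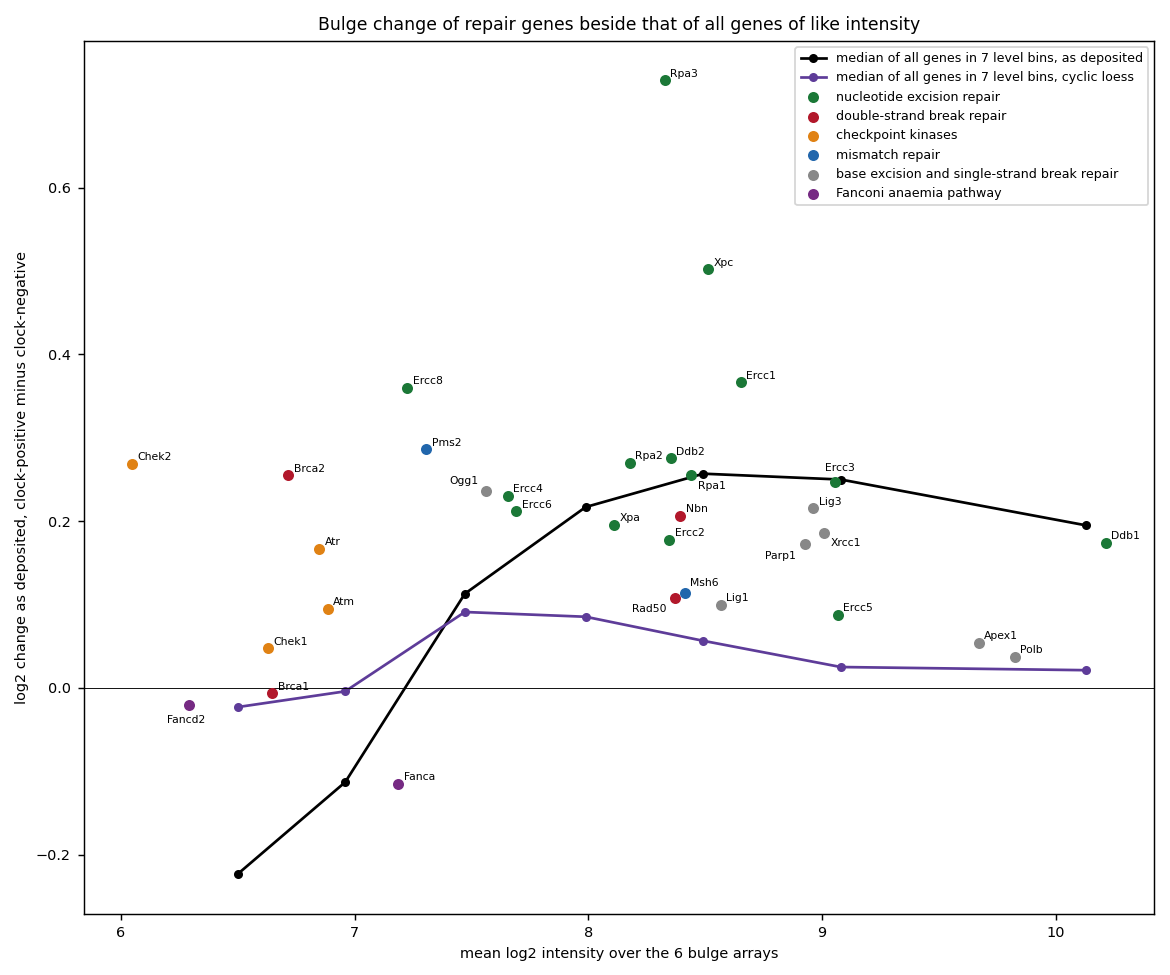
Log2 change in the bulge, clock-positive minus clock-negative, of each member (points, coloured by route) against its mean log2 intensity over the 6 bulge arrays, with the median change of all genes in 7 intensity bins as lines. Rpa3, Xpc, Ercc1 and Ercc8 lie above the black line of all genes as deposited, while Xpa, Ddb1 and Ercc3 lie on or under it.

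Brca2, Ercc4, Ercc8, Pms2, Rpa3 and Xpc were called higher under all 4 scalings, 6 genes, as were 22.8% of all genes, and 0 members were called lower under all 4, as were 7.46%. Xpc, Ercc8 and Rpa3 were called in every setting tried other than the fold of 1.5, which Rpa3 alone passed. How many of all genes were called in every setting was not counted. The naming of Xpc, Ercc8 and Rpa3 is therefore a description and does not set them apart from other genes. By route, cyclic loess left the excision repair genes with a median of 0.0983, beside 0.0351 over all genes, and it moved the base excision genes to a median of -0.053, with 0 higher and 2 lower. Some dim genes moved the other way: the checkpoint kinases Atm and Atr were called higher under both quantile normalization and cyclic loess and Chek1 under quantile normalization, and so was Fancd2 of the Fanconi anaemia pathway under both.

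**Figure D3:**
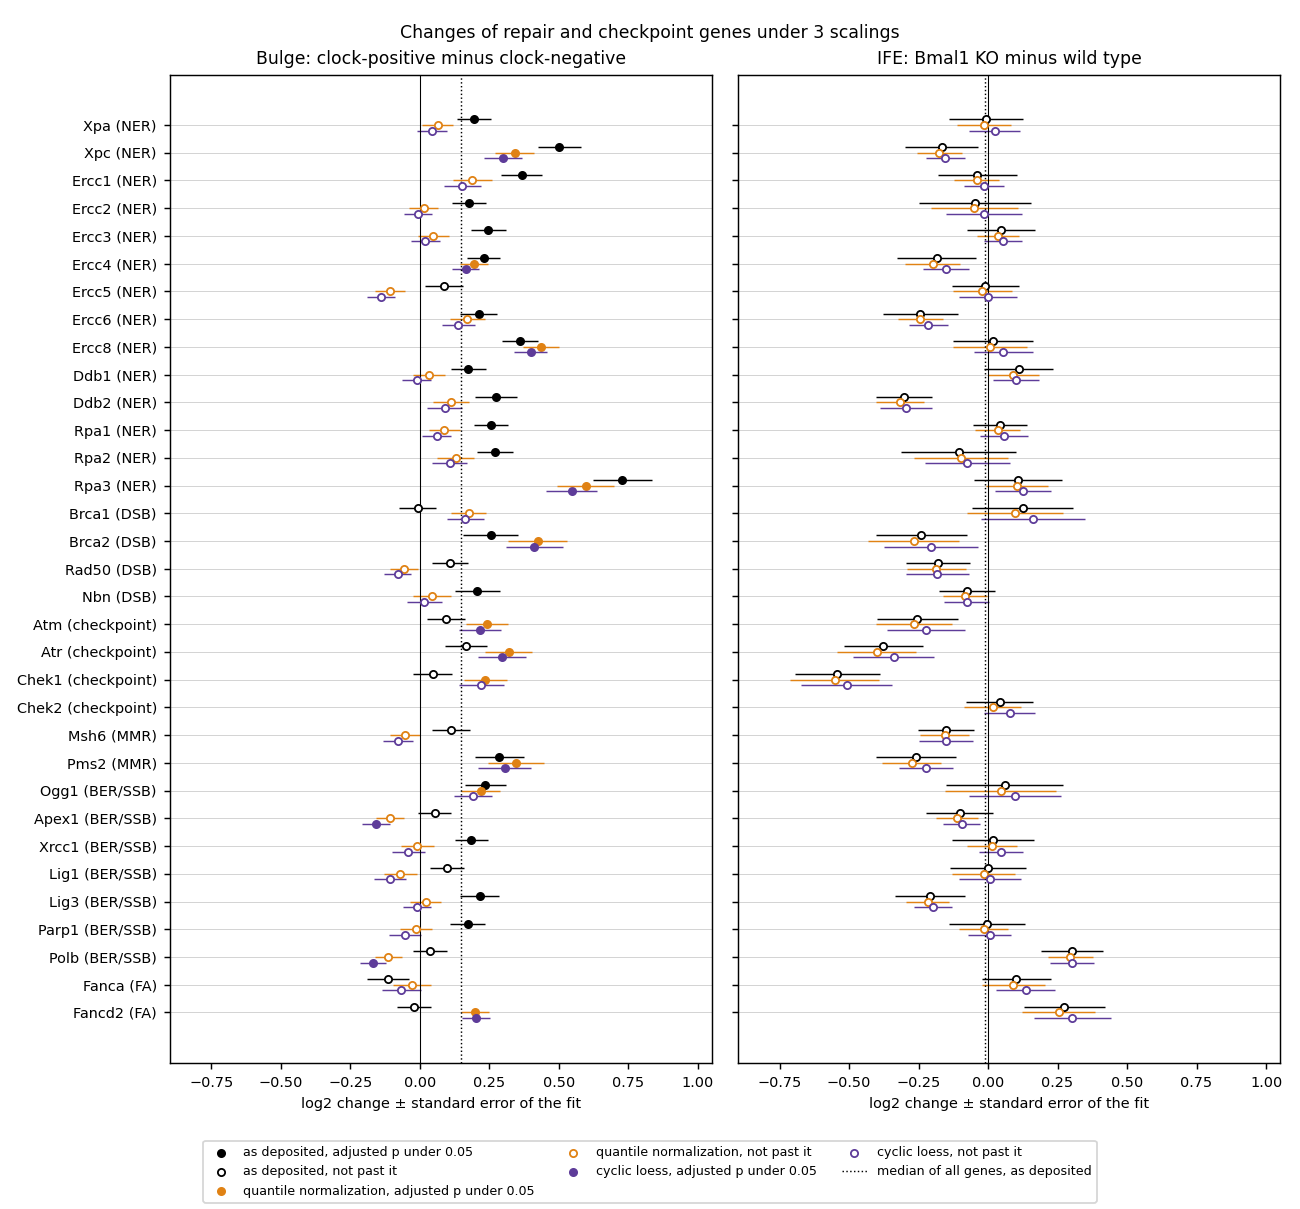
Log2 change ± standard error (limma) of each member as deposited and after quantile normalization or cyclic loess within the set, for the bulge (left) and the epidermis (right); filled points passed an adjusted p under 0.05 and the dotted line is the median change of all genes. In the bulge Brca2, Ercc4, Ercc8, Pms2, Rpa3 and Xpc stay filled under each scaling drawn. Of the genes filled as deposited, Ercc2, Ddb1, Lig3, Xrcc1 and Parp1 cross 0 under cyclic loess, and Xrcc1 and Parp1 also under quantile normalization. In the epidermis every point is open.

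Other measures moved with the same split. All 19 mitotic and cell cycle genes tested were higher in clock-positive cells, with a median change of 0.420, and 11 of 23 S phase and replication genes were higher and 1 lower, with a median of 0.159. The mitotic genes averaged 7.88 to 8.09 on clock-negative and 8.39 to 8.44 on clock-positive arrays. T cell markers were lower in clock-positive cells for 8 of 8 genes, averaging 7.20 to 7.22 against 8.09 to 8.17, endothelium markers were higher for 8 of 10 genes, averaging 7.92 to 7.96 against 7.57 to 7.64, and myeloid markers were lower for 6 of 9 and higher for 3. Epidermal differentiation markers averaged 10.96 to 10.98 on clock-positive and 11.39 to 11.41 on clock-negative arrays. Of these 9 markers 4 were lower and 1 higher, and Lce1c at -1.79, Hrnr at -1.20 and Lor at -1.17, all proteins of the cornified layer, had the smallest p-values. Melanocyte markers were lower for 5 of 6 genes and higher for 1, averaging 7.12 to 7.22 against 7.27 to 7.39. Their part in the repair gene values was not tested.

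Of the other repair genes listed by route, 89 had a probe set of their own and 83 were tested, of which 37 (44.6%) were higher and 2 (2.41%) lower, with a median change of 0.150. Over all genes 45.2% were higher and 18.3% lower and the median was 0.147, so the share of these genes called higher lay at the background, and the calls by route are given as a description. In nucleotide excision repair 10 of 17 were higher, the smallest p-values belonging to Cetn2, the centrin that partners XPC, at 0.62, the TFIIH subunit Gtf2h3 at 0.44 and Cul4b, the cullin of the DDB ligase, at 0.65. In checkpoint signalling 7 of 12 were higher, led by H2ax, the histone phosphorylated at breaks, at 0.65, and by the clamp and its loader, Rad9a at 0.54 and Rad17 at 0.50. In base excision repair 5 of 12 were higher and 1 lower, led by the glycosylases Nthl1 at 0.48 and Mpg at 0.42, and in double-strand break repair 9 of 18 were higher and 1 lower, led by the end-joining gene Xrcc4 at 0.43. Of 10 Fanconi anaemia genes 2 were higher, of 11 translesion and direct reversal genes 4, with the alkyltransferase Mgmt at 0.51, and of 3 mismatch repair genes 0.

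The second comparison asks whether loss of Bmal1 in the epidermis goes with other levels of repair genes. Of the 33 genes, 0 were called between KO-labelled and WT arrays in either direction (limma, adjusted p under 0.05), as only 0.193% of the 13956 genes tested, 27 genes, were. At an unadjusted p under 0.05 there were 4 members, Chek1, Atr and Ddb2 lower and Polb higher, against 7.96% of all genes, 5.50% lower and 2.46% higher. The members' median change was -0.0382 and that of all genes -0.0123, and 21 of 33 changes were below 0, as were 53.5% of those of all genes.

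Precision was lower than in the bulge. The median SD within groups was 0.168 over the members, and the 95% intervals reached from 0.222 to 0.483 to either side of the change, with a median of 0.315, against a median of 0.148 in the bulge. A change within such an interval could not be told from 0, so a gene with no call is not shown to be equal in the genotypes. The intervals are for single genes and unadjusted, while calls were adjusted over all genes tested. Those of Chek1, Atr, Ddb2 and Polb left out 0 though none of these genes was called. The groups overlapped for 30 of the 33 genes, Polb lay above and Ddb2 and Chek1 lay below, against 4.11% of all genes above and 8.56% below.

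Xpa read 9.39, 9.17 and 8.94 on the KO-labelled arrays and 9.20, 9.07 and 9.25 on the WT arrays. The KO-labelled values spread over the whole WT range and beyond it on both sides, and the change was -0.01 ± 0.13 (limma, adjusted p = 0.997), with a 95% interval from -0.32 to 0.30. Xpc read 10.22, 9.95 and 9.83 against 10.04, 10.16 and 10.31, with overlapping groups (-0.17 ± 0.13, adjusted p = 0.897). Rpa3 read 10.32, 9.83 and 9.73 against 9.80, 9.90 and 9.87, with KO-labelled array 1 high and the others within or under the WT values (0.11 ± 0.16). Ercc8, the CSA gene, differed by 0.02 ± 0.15 and Ercc6, the CSB gene, by -0.24 ± 0.14. Ddb2 read 10.24, 10.11 and 10.05 against 10.49, 10.41 and 10.42, all KO-labelled values lying below all WT values. Its change was -0.30 ± 0.10 (adjusted p = 0.413 in limma), with an interval from -0.54 to -0.07. Over the 14 excision repair genes the median change was -0.0241, with 5 above 0.

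The checkpoint kinases had the lowest median change of the routes, -0.316 over 4 genes. Chek1, the kinase that ATR activates, read 8.98, 8.46 and 8.83 on the KO-labelled arrays and 9.47, 9.23 and 9.20 on the WT arrays. The highest KO-labelled value lay below the lowest WT value, and the change was -0.54 ± 0.15 (adjusted p = 0.328 in limma), with a 95% interval from -0.90 to -0.19. Over the other settings its adjusted p in limma ran from 0.029, in a fit of all 12 arrays where 1.79% of genes were called lower, to 0.977. That fit takes 1 spread per gene over both sets, and the members' median SD within groups was 0.0591 in the bulge and 0.168 in the IFE. Its p-value therefore does not rest on the IFE spread alone. Atr read 8.66, 8.29 and 8.41 against 9.03, 8.83 and 8.63, so that KO-labelled array 1 met WT array 3 (-0.38 ± 0.14, adjusted p = 0.514). Atm differed by -0.25 ± 0.15 and Chek2 by 0.04 ± 0.12.

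In base excision repair Polb read 11.01, 11.06 and 10.77 on the KO-labelled arrays and 10.60, 10.65 and 10.68 on the WT arrays. Every KO-labelled value lay above the WT values, with array 3 nearest to them, and the change was 0.30 ± 0.11 (adjusted p = 0.489 in limma). The other 6 genes of the route lay between Lig3 at -0.21 ± 0.13 and Ogg1 at 0.06 ± 0.21. Of the double-strand break genes, Brca2 differed by -0.24 ± 0.16 and Brca1 by 0.12 ± 0.18, and of the mismatch genes Pms2 by -0.26 ± 0.14 and Msh6 by -0.15 ± 0.10. Fancd2, which is ubiquitinated at crosslinks, read 8.02, 7.54 and 7.75 against 7.65, 7.48 and 7.36, with overlapping groups (0.27 ± 0.14, adjusted p = 0.742).

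Single arrays moved many members at once. KO-labelled array 1 held the highest value of 18 of the 33 genes (54.5%), as of 40.3% of all genes, while KO-labelled array 3 held the lowest of 13 (39.4%) and WT array 1 of 10 (30.3%), as of 32.2% and 34.7% of all genes. Averaged over the 33 genes, the KO-labelled arrays stood at 9.70, 9.40 and 9.37 and the WT arrays at 9.50, 9.58 and 9.58. The mean of KO-labelled array 1 lay above the 3 WT means and those of the other KO-labelled arrays lay below them. Over all genes tested the KO-labelled arrays averaged 9.14, 9.03 and 8.96 and the WT arrays 8.97, 9.09 and 9.12. KO-labelled array 1 was thus the highest there as well, and the place of this array is not particular to the members. The first principal component of the IFE arrays, 48.2% of the variance, set WT array 1 with KO-labelled arrays 2 and 3 and did not part the genotypes. The second, 30.9% of the variance, did part them, with WT arrays at 10.58 to 17.47 and KO-labelled arrays at -14.66 to -10.54.

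**Figure D4:**
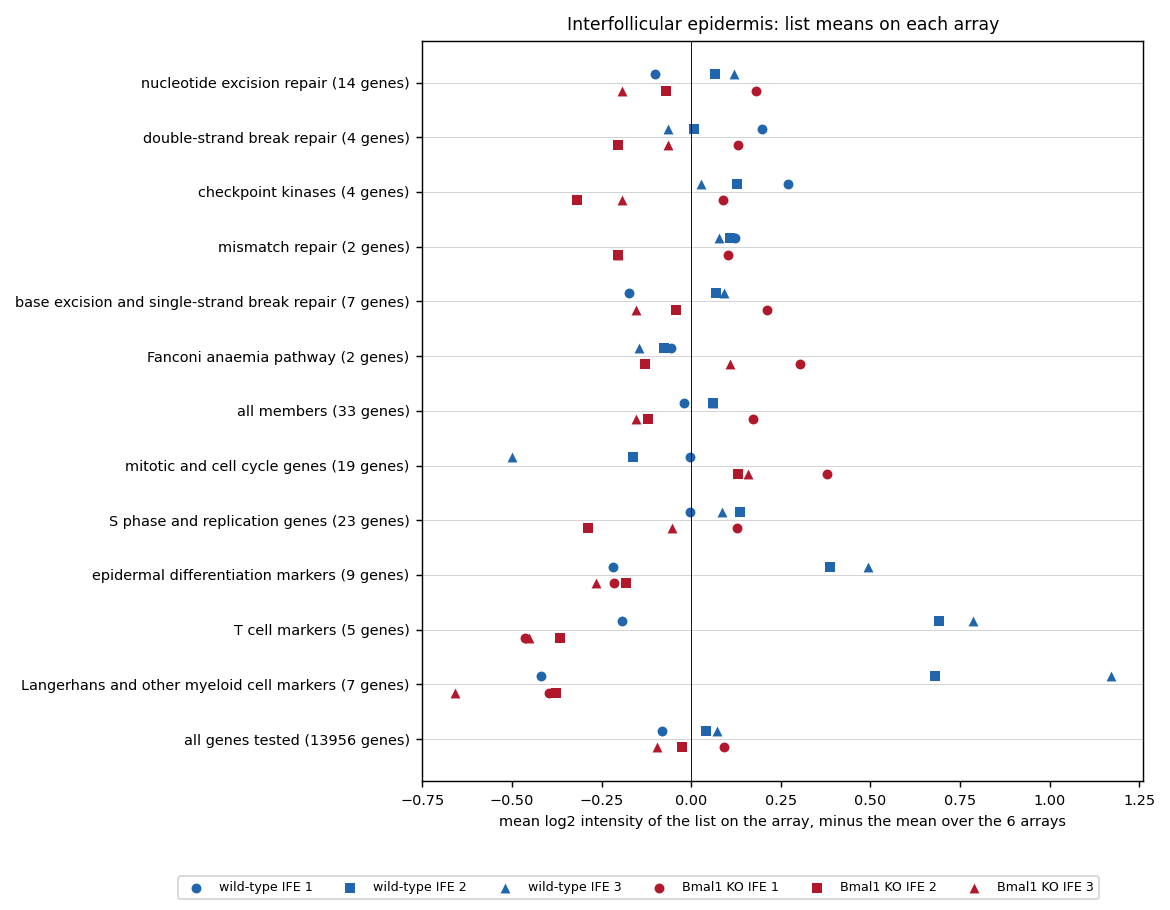
Mean log2 intensity of gene lists on each of the 6 epidermis arrays, minus the mean of the 6 (x axis); blue is WT, red is labelled KO, and the shape gives the array number. KO-labelled array 1 lies right of the WT points for nucleotide excision repair, base excision repair, the Fanconi anaemia pathway, all members and all genes tested. It does not for double-strand break repair, mismatch repair or the checkpoint kinases. The mitotic list is higher on all KO-labelled arrays. WT arrays 2 and 3 stand apart on the differentiation, T cell and myeloid markers.

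Other lists moved with these arrays. All 19 mitotic genes had changes above 0 with 0 called and a median of 0.413, averaging 9.96 to 10.20 on KO-labelled and 9.33 to 9.82 on WT arrays, while 4 of 23 S phase genes were above 0 (median -0.178). T cell markers averaged 8.47 to 8.57 on KO-labelled arrays and 8.74, 9.63 and 9.72 on WT arrays, and myeloid markers 7.42 to 7.70 against 7.66, 8.76 and 9.25. Differentiation markers averaged 10.01 to 10.09 on KO-labelled arrays and 10.06, 10.66 and 10.77 on WT arrays, with 0 of 9 changes above 0, a median of -0.356 and 0 called. Of the 5 T cell markers tested 1, Thy1, was called, higher on the KO-labelled arrays. The part of these lists in the repair gene values was not tested.

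Of the other repair genes, 88 were tested and 0 were called (limma, adjusted p under 0.05), while 5 (5.68%) were lower and 2 (2.27%) higher at an unadjusted p under 0.05, close to the 5.50% and 2.46% of all genes, with a median change of -0.0605. Those named next are a description only. The smallest p-values belonged to Rev3l, the catalytic subunit of polymerase zeta, at -0.39 ± 0.12 (adjusted p = 0.388), to Prkdc, the end-joining kinase, at -0.38 ± 0.13 and to Mgmt at 0.45 ± 0.18. Rev1 at -0.30 ± 0.12, Parp2 at -0.29 ± 0.12 and Neil3 at 0.47 ± 0.20 also had an unadjusted p under 0.05 in limma. In the checkpoint list H2ax stood at 0.43 ± 0.20 and Timeless, a replication fork protection factor, at -0.37 ± 0.18. Neither of these 2 had an unadjusted p under 0.05.

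The third comparison asks whether a member's change differs between the settings, by testing the bulge change (clock-positive minus clock-negative) minus the IFE change taken as WT minus KO-labelled. Tissue, age and the number of mice pooled differ between the sets as well, and cannot be told apart from the clock contrast. Of the 32 members tested in both, Rpa3 alone was called, at 0.84 ± 0.20 (limma on all 12 arrays, adjusted p = 0.0149), against 16.7% of 13100 genes. Rpa3 was 0.73 higher in clock-positive bulge cells and 0.11 lower in WT than in KO-labelled epidermis. On its other probe set these were 0.297 and 0.109. Without clock-negative array 2 the adjusted p of the difference for Rpa3 was 0.0525 in limma.

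Chek1 came next with -0.50 ± 0.17 (adjusted p = 0.0637 in limma), from 0.05 in the bulge and 0.54 for WT above KO-labelled in the epidermis. It passed the threshold without WT array 3, KO-labelled array 1 or KO-labelled array 3. Polb differed by 0.34 ± 0.13 and Rpa1 by 0.30 ± 0.11 (adjusted p = 0.0722 and 0.0745). For Xpa the difference was 0.19 ± 0.15, with a 95% interval from -0.13 to 0.51, and for Xpc it was 0.33 ± 0.16, from -0.01 to 0.67.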

How the data were processed

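The deposited table holds log2 intensities of 35512 probe sets on Affymetrix whole-transcript mouse arrays. The submitters' processing notes name RMA as the authors' method, with no version or settings given in the sources used here. Bulge and IFE columns are filled for partly different probe sets, so each set was fitted alone in the first and second comparisons. Probe sets with 1 symbol (21789) were used, those with several (1621) or no listed gene (12102) were not. Where a symbol had several, one with values on all 12 arrays came first and a higher mean decided among these. The 30% of genes with the lowest mean in a set were left out, which left 13956. The Entrez identifiers of all 33 members matched RefSeq (GRCm38.p6), with 0 symbols changed.

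Each comparison was fitted across all genes with limma 3.58.1 in R 4.3.3 (lmFit, eBayes without trend, two-sided, Benjamini-Hochberg over all genes tested, threshold 0.05), on 3 arrays per group; the difference of contrasts used 4 group means over 12 arrays. The fits were tested on simulated data. Alternatives were median centring, quantile normalization, cyclic loess, other filters on dim genes (none, or the lowest 50%), averaged probe sets, 1 fit of all arrays, a trended spread, a fold of 1.5, the replicate number as a block and leaving out each array. An array has no read depth: 3 arrays per group limit the precision. Each array is a pool of mice, so p-values measure the spread between pools. No columns were identical.

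The members and all gene lists were chosen with earlier results of these data known. Any member may be named; of the other repair, cell cycle, clock and marker lists, up to 3 genes per list and comparison with the smallest p. Arntl is named as the knocked-out gene, and Per1 as the reporter's gene.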

Additional observations from a re-analysis of the deposited data

Results flagged for a closer look

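Rpa3 differed between the bulge and the IFE comparison. Its change in the bulge (clock-positive minus clock-negative) minus its change in the IFE (WT minus KO-labelled) was 0.836 on the log2 scale, and the test of that difference over all 12 arrays passed the threshold (limma, adjusted p = 0.0149). The 3 clock-positive values lay above the 3 clock-negative ones, and the WT and KO-labelled values overlapped. These values are from 1 of 2 probe sets. The other changed less in the bulge, by 0.297, and was 0.109 lower in WT than in KO-labelled epidermis. With the replicate number as a block its adjusted p was 0.0580, and without clock-negative array 2 it was 0.0525. Groups of 3 arrays were too small to test single arrays as outliers.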

How the results depend on the processing

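With 3 arrays per group, the limits are the number of arrays and, in the bulge, the scaling between them. The count of members higher in the bulge, 20 as deposited, was 11 with quantile normalization, 9 with cyclic loess, 6 in a fit of all 12 arrays, 1 with a fold of at least 1.5, and 11 to 22 when 1 array was left out. In the fit of all 12 arrays 25.1% of all genes were higher in the bulge. The count lower in the bulge, 0, became 2 with cyclic loess. In the IFE the count lower, 0, became 1 (Chek1) in the fit of all 12 arrays, which takes 1 spread per gene over both sets. The count higher in the IFE was 0 under every alternative. The difference of contrasts, 1 member as deposited, gave 3 with median centring, 4 with cyclic loess and 0 to 3 when 1 array was left out. Over all 13100 genes, median centring gave 3005 calls and cyclic loess 2618. Signs that turned with a call on either side were all in the bulge: with cyclic loess Ercc2 was -0.007028, Ddb1 -0.0111, Apex1 -0.1579, Xrcc1 -0.04102, Lig3 -0.01052, Parp1 -0.05302, Polb -0.1671 and Fancd2 0.2032, and with quantile normalization Xrcc1 was -0.008276, Parp1 -0.01402 and Fancd2 0.1997; the cause was not tested. Over all genes in the bulge, 8866 were called as deposited, 5809 with quantile normalization, 5739 with cyclic loess, 4831 in the fit of all arrays and 1008 with the fold; higher and lower calls took 45.2% and 18.3% of genes as deposited, 64.0% and 9.71% with median centring, 29.5% and 12.2% with quantile normalization and 25.3% and 15.8% with cyclic loess. In the IFE 27 genes were called, 18 with median centring, 49 with quantile normalization, 85 with cyclic loess, 373 in the fit of all arrays, 57 with a trended spread, 16 with no filter, 47 with the lowest 50% left out and 7 to 98 without 1 array. For the difference 2192 genes were called, and 1048 to 3958 without 1 array. With the replicate number as a block, 21 members were higher and 0 lower in the bulge, 0 were called in the IFE and 0 in the difference. Over all genes 9351 of 13956 were then called in either direction in the bulge, 3 in the IFE and 567 in the difference. The labels do not say that numbers pair samples, and same-numbered deviations correlated at 0.241, 0.26 and -0.061 in the bulge and at -0.442, 0.0427 and -0.525 in the IFE. Of 473 member values under bulge alternatives, 372 kept their call or lack of one, 73 lost the call, 17 gained it and 11 turned sign with a call on either side. Of 492 in the IFE, 491 kept their lack of a call and 1 gained a call. Of 633 for the difference, 621 kept their call or lack of one, 2 lost the call and 10 gained it. Values that changed sign with no call in either fit are counted among those kept. They came from 9 members in the bulge, 15 in the IFE and 17 in the difference.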
